A study of Cucurbita pepo with 18 samples.

Results

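Kinesins are motor proteins that use ATP to move along microtubules, and plants hold many more of them than animals do. Some subfamilies build the mitotic spindle and the phragmoplast, the microtubule array that lays down the new wall between daughter cells, and others act on the cortical microtubules that guide cellulose deposition or carry vesicles to the wall. FRA1 (FRAGILE FIBER 1, a KIN-4A) of Arabidopsis is the best known member of the second kind, and Arabidopsis Kinesin-13A takes down cortical microtubules where secondary wall pits form in xylem vessels.

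The kinesin genes described here were the features of the whole experiment whose deposited description holds the word "kinesin", which gave 92 of 29484 features. Of these, 84 were named as motors, 7 were kinesin light chain-related proteins (KLCR), and 1 was a U-box protein matched only through a kinesin-associated protein domain. A motor domain was annotated in 79 members and in none of the other 13. By name, the motors were 24 KIN-14, 19 KIN-7, 8 KIN-12, 7 KIN-13, 6 armadillo repeat kinesins (KIN-UB and KIN-UC), 5 KIN-4, 5 KIN-5, 4 KIN-8, 4 KIN-10, 1 KIN-6, and 1 KIN-1. From the names, 23 members were placed in a spindle and phragmoplast group (KIN-5, KIN-12, NACK, KIN-10A, KIN-14C, and KIN-14N), 12 in a wall-related group (KIN-4 and KIN-13), and 8 in a group of KIN-14 genes with a calponin homology domain, which binds actin in cotton and rice relatives. Another 41 motors had no such group, and 8 members were not named as motors.

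Seed coats of a hull-less (HL) and a hulled (H) accession of Cucurbita pepo were sequenced at 5, 10, and 20 days after pollination (DAP), with 3 biological replicates per accession and stage and 18 libraries in all. HL carries a recessive insertion allele of CpNST1, a regulator of secondary wall genes, and H carries the functional allele. Each accession is a single line, so the allele and the rest of the genetic background cannot be told apart.

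Total counts were 13827773 to 18443048 per library, and kinesin members took 0.123% to 0.369% of them. Within groups, libraries correlated at r of 0.959 to 0.990 on log2 CPM (counts scaled by the TMM library size), except that H replicate 1 at 10 DAP stood apart from the other H libraries of that stage (r = 0.875 and 0.913, while the other pair had 0.970). A gene of ovule and seed coat identity (AGL11) was present in every library at 442 to 1463 CPM. It was lower in HL at 5 DAP, with 489, 442, and 535 CPM in HL and 767, 936, and 825 CPM in H. At 10 and 20 DAP the accessions overlapped. Transcripts of embryo storage proteins and of endosperm were also found at 20 DAP, and their levels are given further on.

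Among members, expression per transcript length was uneven. The 5 members with the highest mean FPKM (fragments per kilobase of transcript, scaled by library, over 18 libraries) held 36.4% of the summed FPKM of all 92, and the median member had 2.02 FPKM. Those 5 were the light chain-related genes Cp4.1LG18g08390 (54.7 FPKM), Cp4.1LG01g01310 (47.0 FPKM), and Cp4.1LG04g15380 (37.1 FPKM), all named KLCR3, the motor gene KIN-7E Cp4.1LG04g01150 (38.3 FPKM), and KIN-13A Cp4.1LG17g00590 (32.4 FPKM). KLCR proteins are known in Arabidopsis to hold cortical microtubules in place while cellulose is made. Only 1 member, KIN-14P Cp4.1LG03g04210, stayed at 3 counts or fewer in all 18 libraries.

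The FRA1 ortholog, KIN-4A Cp4.1LG06g01660 (LG06, 932332 to 941968, Cp4.1 assembly, plus strand), was lower in hull-less than in hulled seed coats at 5 and 10 DAP. At 5 DAP it had 42.3, 43.6, and 39.7 CPM in the HL libraries, against 99.9, 113, and 107 CPM in the H libraries. At 10 DAP the HL libraries had 17.4, 20.8, and 23.4 CPM, against 45.6, 55.6, and 50.4 CPM in H. No HL library reached any H library at either stage. In bulk tissue, fewer cells of a type and less RNA per cell cannot be told apart, and this applies to every difference given here.

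By 20 DAP the gap in FRA1 was narrower, with 27.4, 28.7, and 25.6 CPM in HL and 42.2, 34.0, and 35.8 CPM in H, and the accessions still did not overlap. The log2 fold change of HL over H was -1.35 ± 0.08 (SE, edgeR adjusted p = 0.000141) at 5 DAP, -1.28 ± 0.16 (edgeR adjusted p = 0.00744) at 10 DAP, and -0.46 ± 0.12 (edgeR adjusted p = 0.0192) at 20 DAP. A gene was called when its Benjamini-Hochberg adjusted p in edgeR's quasi-likelihood test was at most 0.05 and its log2 fold change was at least 1 in size, so FRA1 was called lower at 5 and 10 DAP and not at 20 DAP. The difference between the 20 DAP and the 5 DAP effect was 0.90 ± 0.17 (edgeR adjusted p = 0.00195), which is under the fold limit.

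Between 5 and 20 DAP, FRA1 fell in both accessions, and only the fall in H reached the fold limit. In HL it averaged 27.2 ± 1.52 CPM at 20 DAP and 41.9 ± 1.96 CPM at 5 DAP (SD, n = 3 each). The log2 fold change there was -0.61 ± 0.09, under the fold limit and so not called. Under each of 13 other analysis settings, the adjusted p of this HL change was at most 0.00585 (edgeR or DESeq2). In H, FRA1 averaged 37.3 ± 4.31 CPM at 20 DAP and 107 ± 6.52 CPM at 5 DAP, a log2 fold change of -1.50 ± 0.11 (edgeR adjusted p = 2.53e-05).

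A second KIN-4A gene, Cp4.1LG02g06850 (LG02, 993679 to 1002949, plus strand), was lower in HL at all 3 stages and kept its gap at 20 DAP. Its HL libraries had 96.0, 97.8, and 95.7 CPM at 5 DAP, against 163, 200, and 175 CPM in H. At 10 DAP they had 13.9, 18.3, and 16.6 CPM, against 67.5, 29.8, and 47.2 CPM in H, where replicate 1 was the highest. At 20 DAP they had 32.3, 27.2, and 23.8 CPM, against 82.0, 49.7, and 68.4 CPM in H. All HL libraries lay under all H libraries at each stage. The log2 fold changes were -0.89, -1.55 (edgeR adjusted p = 0.0245), and -1.27 (edgeR adjusted p = 0.00333), of which the last 2 were called. The call at 10 DAP was lost under 5 of 13 other analysis settings, among them leaving out H replicate 3 or any 1 of the HL replicates.

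Neither KIN-13A gene was called between accessions at any stage. At 5 and 10 DAP their log2 fold changes of HL over H were -0.17 and -0.23 for Cp4.1LG17g00590 and 0.00 and -0.24 for Cp4.1LG12g02780. Cp4.1LG17g00590, the ortholog of Kinesin-13A, held a nearly level course in HL, with a mean of 89.4 ± 1.38 CPM at 5 DAP, 89.2 ± 1.01 CPM at 10 DAP, and 90.2 ± 6.82 CPM at 20 DAP (SD, n = 3 each). Its libraries at 20 DAP had 94.5, 93.8, and 82.3 CPM in HL and 141, 116, and 132 CPM in H, with no overlap. The log2 fold change there was -0.53 ± 0.12 (edgeR adjusted p = 0.0117), under the fold limit, and that of the other KIN-13A, Cp4.1LG12g02780, was -0.61 ± 0.14 (edgeR adjusted p = 0.0133).

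**Figure D1:**
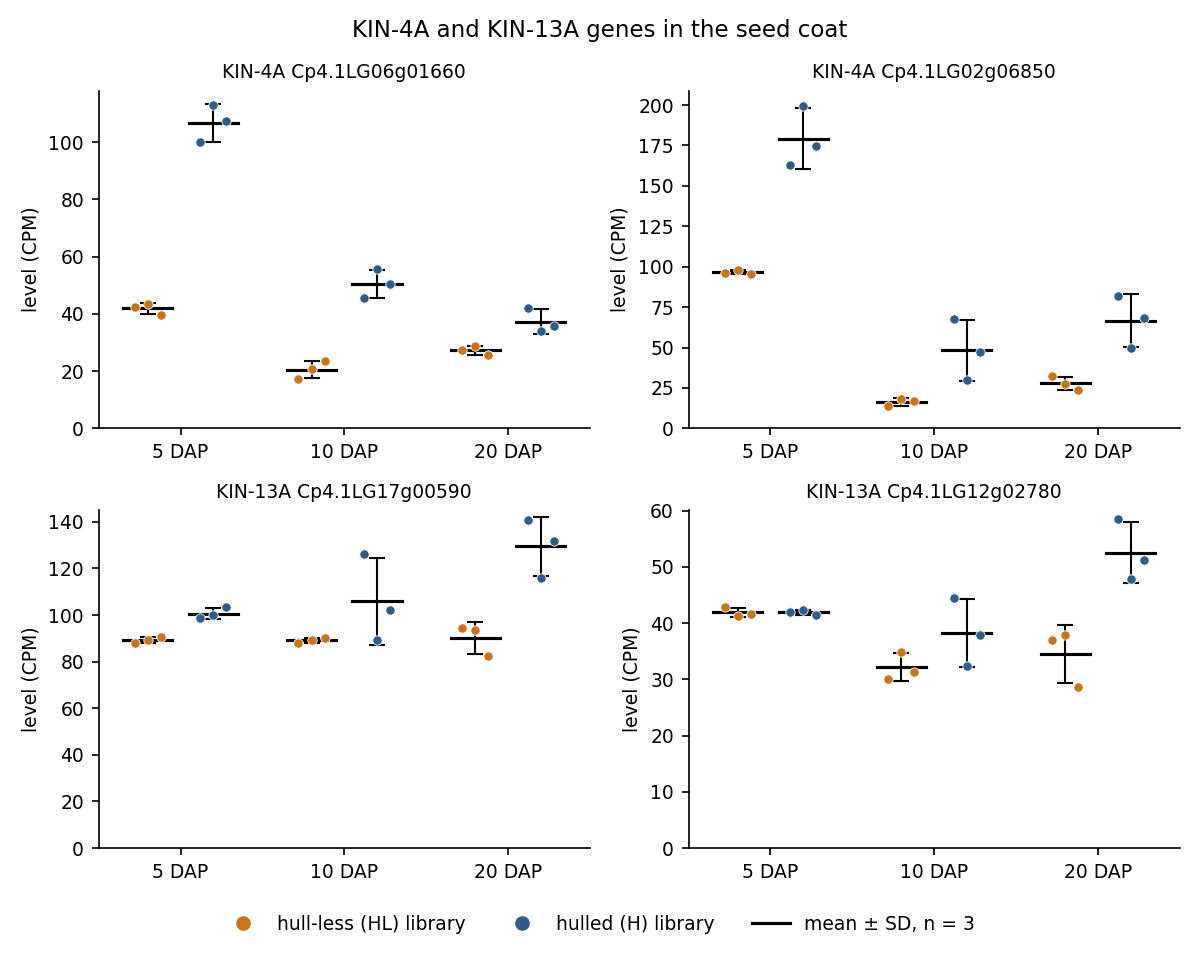
Level in TMM-scaled CPM of both KIN-4A and both KIN-13A genes at 5, 10, and 20 DAP. Each point is a library of HL (left of each pair) or H (right), and the bars give the mean and SD of 3 libraries; the HL points of the FRA1 ortholog Cp4.1LG06g01660 lie under all H points at each stage, with the widest gap at 5 DAP.

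In the wall-related group, all 12 log2 fold changes were below 0 at 20 DAP. Of the 5 KIN-4 genes, 4 were called lower in HL, and of the 7 KIN-13 genes, 0 were called in either direction, with log2 fold changes of -0.61 to -0.23. In edgeR 3 of these 7 had an unadjusted p under 0.05, and DESeq2 called 0 of them. All HL libraries lay under all H libraries in 5 of the 7 KIN-13 genes and in all 5 KIN-4 genes (28.1% of all features did). The difference between KIN-4 and KIN-13 was not tested. The 4 KIN-4 genes were Cp4.1LG02g06850 and the 3 KIN-4C genes. Cp4.1LG02g05370 had 3.75, 1.67, and 1.91 CPM in HL and 8.99, 11.4, and 7.36 CPM in H, and its log2 fold change was -1.92 ± 0.36 (edgeR adjusted p = 0.00588). Cp4.1LG07g01670 and Cp4.1LG11g04780, which have no annotated motor domain and 0.836 and 0.435 FPKM on average, had log2 fold changes of -3.20 and -4.01. Other analysis settings were not tried gene by gene for the 3 KIN-4C genes. These 3, the second KIN-13A, and the KIN-13B genes were picked for mention after their values were seen.

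Of the KIN-13B genes, Cp4.1LG12g08230 was the only wall-related member called higher in HL at 5 DAP (1.91, edgeR adjusted p = 0.0145) and at 10 DAP (2.10, edgeR adjusted p = 0.0263). It had 1.47, 1.11, and 1.01 CPM in HL and 0.143, 0.42, and 0.377 CPM in H at 5 DAP. It carries no annotated motor domain and overlaps the KIN-13B gene Cp4.1LG12g08090 over 4449 bp on the opposite strand, and reads of such pairs cannot be told apart where counting did not use strand.

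Genes of cortical patterning and of the secondary wall were set beside the wall-related kinesins at 20 DAP. Of 10 listed orthologs of such genes, 5 were called lower in HL (background 12.7%) and 0 higher (background 8.37%). The 10 were picked from the ortholog list of the study. It had already reported CesA4, CesA7, and CesA8 as lower in HL from these data, so the count is a description only. The secondary wall cellulose synthase genes CesA4, CesA7, and CesA8 had log2 fold changes of -5.65, -8.25, and -6.43. The microtubule depletion protein MIDD1 and the bundling protein MAP65-8 had -2.55 and -1.70. ROP11, ROPGEF4, ROPGAP3, MAP70, and CSI1 were not called.

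Over all members, the hull-less seed coats had a lower summed kinesin level than the hulled ones at 5 and 20 DAP, and the accessions overlapped at 10 DAP. Summed over the 92 genes, the level at 20 DAP was 1468, 1376, and 1426 CPM in HL and 2221, 1951, and 1994 CPM in H. A large part of this gap lay in the 8 members not named as motors. They summed to 358, 369, and 438 CPM in HL and 705, 636, and 663 CPM in H. The 41 motors without a role group overlapped, at 695, 676, and 701 CPM in HL and 820, 696, and 705 CPM in H. At 10 DAP it was 1737, 1789, and 1816 CPM in HL and 2086, 1544, and 1746 CPM in H, which overlap. At 5 DAP it was 2182, 2290, and 2311 CPM in HL and 2615, 2975, and 2778 CPM in H.

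At 20 DAP, 83 of the 92 members were tested and the other 9 had too few counts. Of the 83, 35 were called lower in HL, while 12.7% of all tested features were called lower. Another 4 were called higher, and the background was 8.37%. The median log2 fold change was -0.97 over the members and -0.01 over all 21973 features tested. In 54 members all HL libraries lay under all H libraries (28.1% of all features did), and in 9 members all lay above (28.8% of all features). Leaving out single libraries moved the count of lower calls to between 21 (without H replicate 2) and 44 (without HL replicate 1), and without H replicate 1 it was 22.

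**Figure D2:**
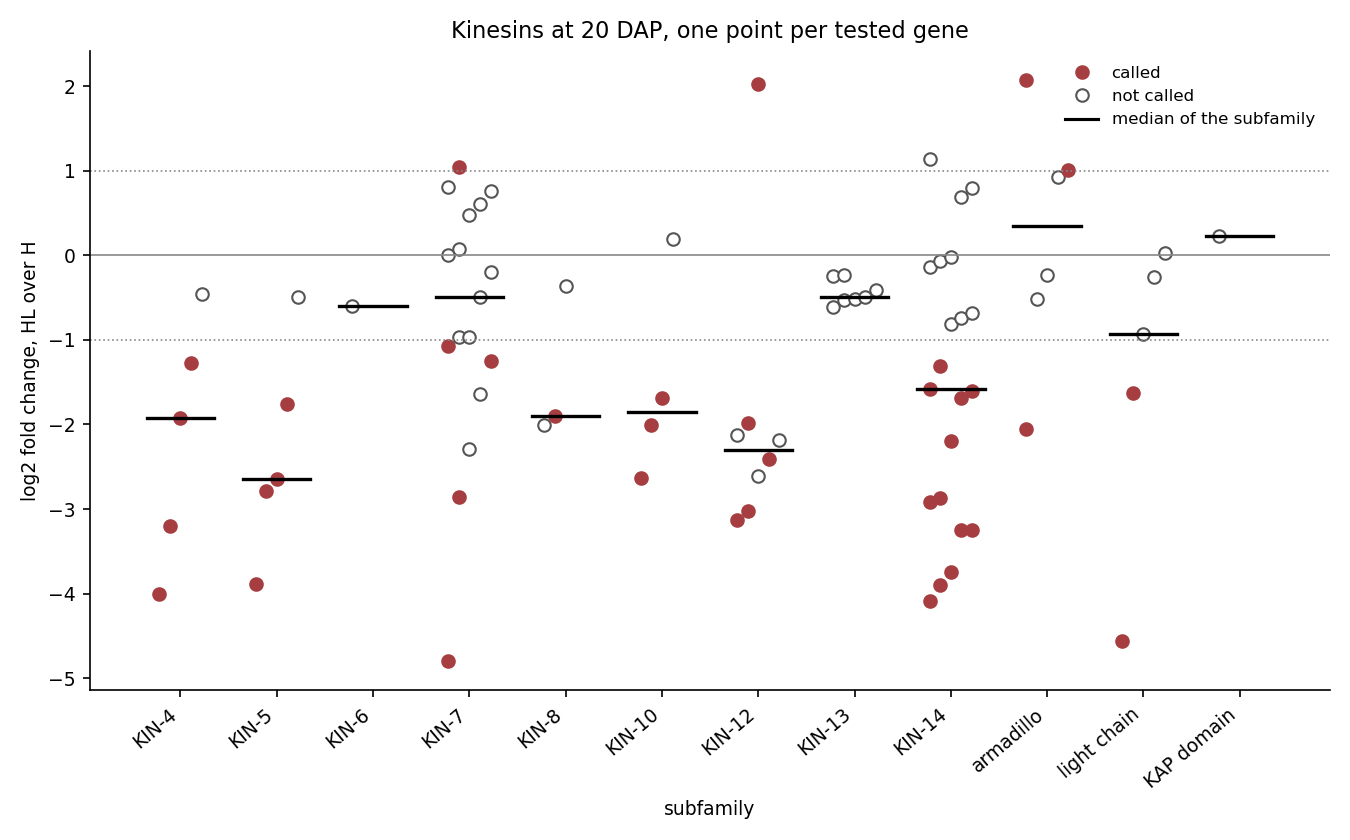
Log2 fold change of HL over H at 20 DAP for each of the 83 tested members, by subfamily. Filled points were called (35 lower, 4 higher), open points were not, black lines are subfamily medians, and dotted lines mark a log2 fold change of 1 in either direction; the KIN-13 points all lie between -0.61 and -0.23.

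The spindle and phragmoplast group supplied 15 of the 35 lower calls at 20 DAP. Of its 22 tested members, 15 were called lower and 1 higher, with a median log2 fold change of -2.19. Its summed level was 131, 74.8, and 69.1 CPM in HL and 207, 215, and 193 CPM in H, so that no HL library reached an H library, and HL replicate 1 was the closest. The count of 15 depended on single libraries. It was 6 without H replicate 1, 5 without H replicate 2, and 8 without H replicate 3, and it was 17, 7, and 13 without HL replicates 1, 2, and 3.

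The wall-related group had 4 lower calls among 12 tested (median -0.52), the calponin homology KIN-14 genes 4 among 6 (median -2.25), the other motors 10 lower and 3 higher among 37 (median -0.52), and the members not named as motors 2 lower among 6 (median -0.59). The background shares of 12.7% and 8.37% apply to each. Like the spindle sum, the wall-related sum at 20 DAP did not overlap between accessions. It was 262, 245, and 210 CPM in HL and 417, 343, and 375 CPM in H. The calponin homology sum did not overlap either, at 21.9, 11.1, and 8.42 CPM in HL and 71.9, 60.2, and 58.2 CPM in H. The difference between the spindle and the wall-related group was not tested.

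KIN-5 motors slide spindle microtubules apart. All 5 lay lower in every HL library than in any H library at 20 DAP, and 4 were called. KIN-5B Cp4.1LG10g08920 (LG10, 4892651 to 4899417, plus strand) had 1.43, 0.462, and 0 CPM in HL and 6.63, 11.8, and 10.1 CPM in H, a log2 fold change of -3.88 ± 0.84 (edgeR adjusted p = 0.0106). The exception was KIN-5D Cp4.1LG20g08710, the most abundant KIN-5 at 10.3 FPKM, with 31.5, 26.0, and 24.7 CPM in HL, 40.8, 38.0, and 36.4 CPM in H, and a log2 fold change of -0.49. Its namesake Cp4.1LG02g13200 had -1.75 ± 0.56 (edgeR adjusted p = 0.0414), a call lost under 4 of 12 alternatives.

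KIN-12 motors belong to the phragmoplast and to the placing of the division plane. Of 8 tested members, 4 were called lower at 20 DAP, namely both KIN-12B genes, KIN-12D, and 1 of 2 KIN-12F genes. KIN-12B Cp4.1LG08g05580 had 2.20, 0.404, and 0.132 CPM in HL and 6.70, 9.18, and 6.59 CPM in H, a log2 fold change of -3.02 ± 0.79 (edgeR adjusted p = 0.0207). The groups did not overlap, and HL replicate 1 was again well above the other HL libraries. The call was lost under 3 of 12 alternatives, each with 1 library left out (H replicate 1, H replicate 2, or HL replicate 2). The other KIN-12B, Cp4.1LG03g12230, lost its call under 4 of 12. KIN-12D Cp4.1LG05g12290 lost its call under 5 of 13, and KIN-12F Cp4.1LG14g07690 under 5 of 12, DESeq2 among them.

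A single KIN-12 gene was higher. KIN-12E Cp4.1LG04g13630 had 3.39, 2.02, and 1.84 CPM in HL and 0.893, 0.141, and 0.704 CPM in H, a log2 fold change of 2.03 ± 0.60 (edgeR adjusted p = 0.0331). The call was lost under 4 of 12 other settings, without H replicate 2 or 3 or HL replicate 1 or 2. This model lacks an annotated motor domain and overlaps the full KIN-12E gene Cp4.1LG04g13730 over 2421 bp on the opposite strand, which had 2.08, 0.404, and 0.197 CPM in HL and 5.74, 2.97, and 3.07 CPM in H (log2 fold change -2.13, not called).

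KIN-14C and KIN-14N motors walk toward microtubule minus ends and focus the spindle poles. KIN-14N Cp4.1LG06g09120 had 4.82, 4.62, and 3.49 CPM in HL and 20.9, 18, and 20.4 CPM in H at 20 DAP. The log2 fold change was -2.20 ± 0.17 (edgeR adjusted p = 0.000186), and it was called lower at 10 DAP too (-2.16 ± 0.48, edgeR adjusted p = 0.0339), where 5 of 13 other settings lost the call. Its paralog Cp4.1LG02g01280 had 12.6, 7.90, and 11.2 CPM in HL and 30.6, 18.7, and 29.2 CPM in H at 20 DAP, a log2 fold change of -1.31 ± 0.25 (edgeR adjusted p = 0.00615). At 10 DAP that paralog was scattered, at 29.2, 12.2, and 2.10 CPM in HL and 167, 6.26, and 62.9 CPM in H. The value of 167 CPM came from the H library that stands apart.

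The KIN-10A pair parted. KIN-10A (PAKRP2) moves along phragmoplast microtubules toward the cell plate. Cp4.1LG12g01290 had 2.38, 1.90, and 1.97 CPM in HL and 8.42, 10.0, and 6.59 CPM in H at 20 DAP, a log2 fold change of -2.0 ± 0.25 (edgeR adjusted p = 0.00116). Its namesake Cp4.1LG17g02250 had 17.2, 13.9, and 9.60 CPM in HL and 14, 11.2, and 10.4 CPM in H, which overlap, with a log2 fold change of 0.19. NACK kinesins switch on the kinase cascade that expands the cell plate. NACK1 Cp4.1LG20g01270 and NACK2 Cp4.1LG01g17070 were called lower (-2.85 and -1.07), and single left-out libraries ended both calls, while the NACK1 gene with the highest level, Cp4.1LG09g11380, had 26.6, 8.89, and 10.9 CPM in HL and 4.85, 10.3, and 11.3 CPM in H. The KIN-5D, KIN-12B, KIN-10A, and NACK genes were picked for mention after their values were seen.

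**Figure D3:**
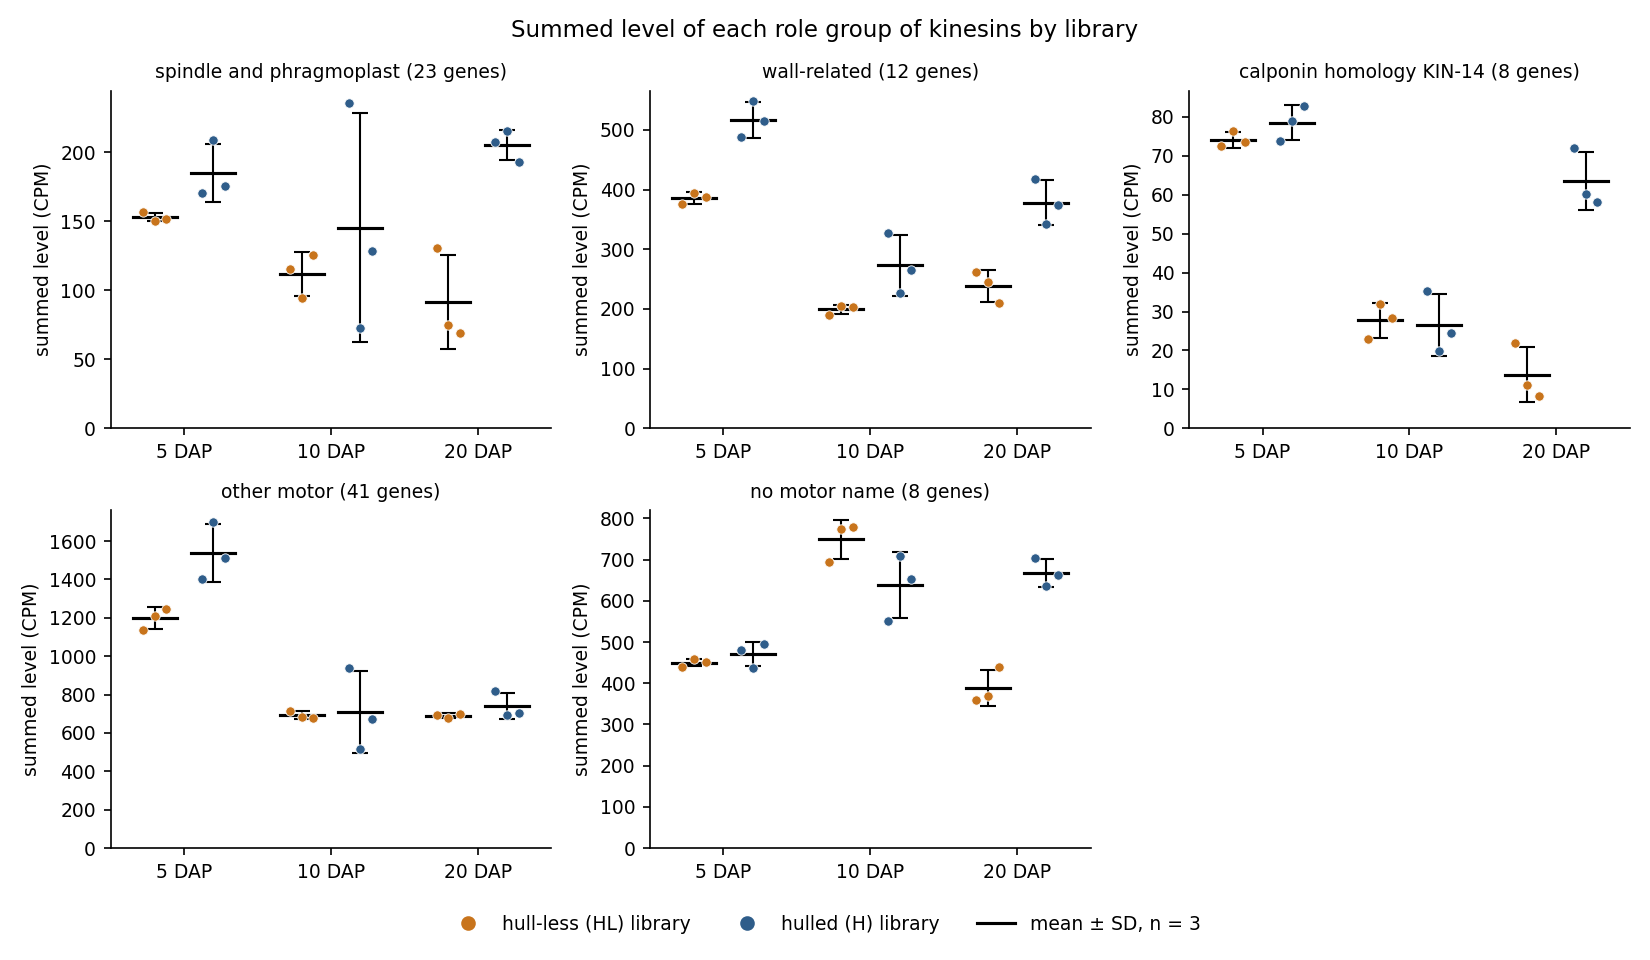
Summed level in CPM of the 5 role groups at 5, 10, and 20 DAP. Each point is a library of HL (left) or H (right), and the bars give the mean and SD of 3 libraries; at 20 DAP the spindle and phragmoplast group sums to 69.1 to 131 CPM in HL and 193 to 215 CPM in H, and at 10 DAP H replicate 1 is the high point at 236 CPM.

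Other genes of cell division and of microtubules were called lower in HL more often than higher at 20 DAP, with backgrounds of 12.7% lower and 8.37% higher over all features. Of 45 listed mitotic partners (B-type cyclins, aurora kinases, TPX2, MAP65, KNOLLE, and checkpoint proteins), 35 were tested, 13 were called lower in HL, and 1 was called higher, with a median log2 fold change of -0.78. All HL libraries lay under all H libraries in 20 of the 35 (28.1% of all features) and above in 8 (28.8%). MAP65-8, called lower, is in this list and also among the cortical patterning and secondary wall orthologs above. Of 31 tubulin genes, 30 were tested, 12 were called lower, and 1 was called higher (median -0.94), with 19 apart downward and 3 apart upward.

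Markers of other seed tissues differed between the same libraries. The 24 embryo and storage genes summed to 2895, 242, and 94.2 CPM in HL and 8805, 6858, and 1334 CPM in H at 20 DAP, with 2 to 4 of the 24 at 0 counts in HL libraries and 1 at 0 in each H library. The 11 endosperm genes named AGL62 or AGL80 summed to 180, 67.2, and 11.4 CPM in HL and 210, 210, and 277 CPM in H, and 6 to 9 of the 11 were at 0 counts in each library, so that the sums rest mostly on Cp4.1LG08g09620 and Cp4.1LG19g06160. The 39 chlorophyll a-b binding protein genes ran the other way, at 4851 to 5963 CPM in HL and 2043 to 2403 CPM in H. HL replicate 1 had the highest spindle, embryo, and endosperm sums of the HL libraries. Among the H libraries, the spindle sum was highest in replicate 2, the embryo sum in replicate 1, and the endosperm sum in replicate 3. The part of these tissues in the kinesin result was not tested.

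**Figure D4:**
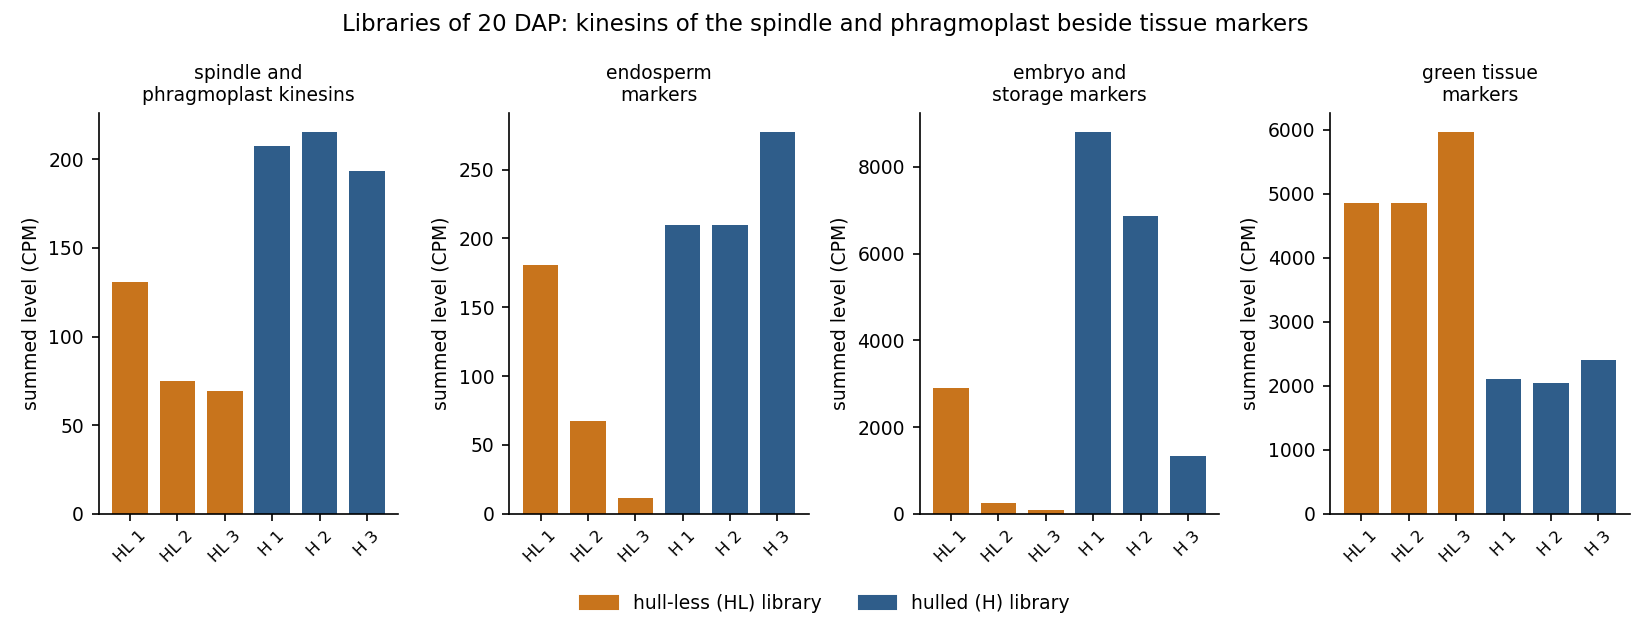
Summed level in CPM at 20 DAP in each HL library (left bars) and each H library (right bars) of the 23 spindle and phragmoplast kinesins, 11 endosperm markers, 24 embryo and storage markers, and 39 green tissue markers. HL replicate 1 has 131 CPM of spindle kinesins and 180 CPM of endosperm markers, above the other HL libraries in both.

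Outside the spindle and wall-related groups, the larger falls at 20 DAP were in KIN-14 genes, in KIN-7N, and in light chain-related genes. KIN-14I Cp4.1LG02g16330 (LG02, 12907685 to 12914593, minus strand), with a calponin homology domain, had 2.14, 2.13, and 0.987 CPM in HL and 35.3, 27.0, and 28.1 CPM in H. The accessions were far apart, and the log2 fold change was -4.09 ± 0.29 (edgeR adjusted p = 0.000129). A second KIN-14I, Cp4.1LG03g05210, had 3.15, 1.04, and 0.395 CPM in HL and 11.7, 11.2, and 11.8 CPM in H, a log2 fold change of -2.91 ± 0.60 (edgeR adjusted p = 0.009).

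KIN-7N Cp4.1LG07g04750 had the lowest log2 fold change of any member, -4.80 ± 0.67 (edgeR adjusted p = 0.00192). It had 0.238, 0.231, and 0 CPM in HL and 3.44, 5.93, and 4.61 CPM in H, and the HL levels were close to the 3 counts (0.173 to 0.197 CPM) taken as the floor of these libraries. The light chain-related gene Cp4.1LG14g02730 (KLCR3) followed, with 0.357, 0.519, and 0.526 CPM in HL and 12.7, 12.6, and 8.19 CPM in H (-4.56 ± 0.31, edgeR adjusted p = 0.00011).

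The abundant KLCR3 genes did not all follow. Cp4.1LG01g01310 had 43.0, 42.8, and 51.3 CPM in HL and 142, 142, and 137 CPM in H at 20 DAP, a log2 fold change of -1.62 ± 0.11 (edgeR adjusted p = 0.000126). Cp4.1LG18g08390 had 193, 192, and 221 CPM in HL and 416, 343, and 389 CPM in H, and its log2 fold change of -0.93 missed the fold limit. Cp4.1LG04g15380 had 78.4, 92.5, and 114 CPM in HL and 91.5, 98.3, and 88.5 CPM in H, which overlap (0.03).

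Among other named members lower at 20 DAP were KIN-8B Cp4.1LG19g10210 (14.7 ± 3.86 CPM in HL, 54.5 ± 8.91 CPM in H, log2 fold change -1.90), KIN-14Q Cp4.1LG01g00930 (3.49 ± 1.25 CPM in HL, 11.2 ± 1.10 CPM in H, -1.69), and KIN-7G Cp4.1LG01g06750 (16.3 ± 1.95 CPM in HL, 38.5 ± 7.37 CPM in H, -1.25), each as mean ± SD of 3 libraries. The most abundant motor gene, KIN-7E Cp4.1LG04g01150, had 105, 136, and 150 CPM in HL and 143, 128, and 119 CPM in H, and its log2 fold change was 0.00 ± 0.16.

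Armadillo repeat kinesins, known in Arabidopsis from root hair growth, supplied 2 of the 4 higher calls at 20 DAP. KIN-UC Cp4.1LG13g10480 (LG13, 6912806 to 6925128, plus strand) had 21.6, 26.4, and 17 CPM in HL and 6.19, 5.29, and 3.84 CPM in H, a log2 fold change of 2.08 ± 0.24 (edgeR adjusted p = 0.000908). KIN-UB Cp4.1LG05g02520 had 45.3, 43.6, and 51.0 CPM in HL and 26.3, 18.3, and 24.3 CPM in H (1.01 ± 0.16, edgeR adjusted p = 0.00284). The fourth, beside KIN-12E, was KIN-7D Cp4.1LG05g12940, whose protein is named as mitochondrial, with 26.2, 22.2, and 38.9 CPM in HL and 13.7, 15.4, and 13.1 CPM in H (1.05 ± 0.22, edgeR adjusted p = 0.00941). The last 2 sat close to the fold limit, and each lost its call under 4 of 13 alternatives.

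At 5 DAP the kinesins of both accessions were more alike. Of 85 members tested, 7 were called lower in HL (background 6.43%) and 3 higher (background 5.53%), and the median log2 fold change was -0.15, against -0.01 over all 22597 features. In 25 members all HL libraries lay under all H libraries (24.2% of all features) and in 10 above (21.6%). The spindle and phragmoplast group had 1 lower call among 22 (median -0.11), and the wall-related group 1 lower and 1 higher among 12 (median 0.04). The summed levels of both groups were still lower in HL without overlap. The wall-related sums were 375, 394, and 387 CPM in HL and 488, 548, and 514 CPM in H. The spindle sums were 156, 151, and 152 CPM in HL and 170, 209, and 175 CPM in H. Without HL replicate 1 the count of higher calls was 1.

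Beside FRA1, the members lower at 5 DAP with the larger counts were KIN-UC, KIN-8B, and KIN-7D. KIN-8B Cp4.1LG10g01730 had 16.6, 15.2, and 19.5 CPM in HL and 57.6, 68.4, and 64.0 CPM in H, a log2 fold change of -1.89 ± 0.11 (edgeR adjusted p = 0.000106). KIN-7D Cp4.1LG04g01100 had 79.6, 72.3, and 83.4 CPM in HL and 161, 200, and 186 CPM in H (-1.22 ± 0.10, edgeR adjusted p = 0.000373). Neither gene showed any overlap, and neither call was lost under any of the 13 alternatives run. From 5 to 20 DAP, this KIN-8B fell by 3.23 on the log2 scale in HL and fell by 4.77 in H.

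At 10 DAP 60 members passed the filter on low counts and 32 did not. Of these 60, 3 were called lower in HL (background 5.56%) and 6 higher (background 5.42%), with a median of -0.22 against -0.04 over all 21104 features. All HL libraries lay under all H libraries in 18 members (20.7% of all features) and above in 16 (19.7%). The lower calls were both KIN-4A genes and KIN-14N Cp4.1LG06g09120. A fit of all 18 libraries called 13 lower and 9 higher, and DESeq2 called 10 lower and 7 higher. Without H replicate 1, the library that stands apart, the counts were 3 lower and 7 higher. Without H replicate 3, HL replicate 1, or HL replicate 3 only 1 was called lower, and leaving out any library but H replicate 1 left 2 or 3 called higher.

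KIN-UC, KIN-UB, and 3 KIN-14 genes changed the sign of their accession difference between stages. KIN-UC Cp4.1LG13g10480 was lower in HL at 5 DAP, with 10.5, 7.38, and 7.48 CPM in HL and 32.1, 45.6, and 36.6 CPM in H (-2.17 ± 0.19, edgeR adjusted p = 0.000468). At 10 DAP it was higher, with 75.8, 63.4, and 92.9 CPM in HL and 31.7, 21.3, and 25.4 CPM in H (1.58 ± 0.21, edgeR adjusted p = 0.00895). With the values at 20 DAP above, the accessions never overlapped, and its 20 DAP effect exceeded its 5 DAP effect by 4.25 ± 0.34 on the log2 scale (edgeR adjusted p = 2.2e-06).

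KIN-UB Cp4.1LG13g01940 (LG13, 1523221 to 1531524, plus strand) changed sign between 10 and 20 DAP. It had 16.7, 10.9, and 12.4 CPM in HL and 6.74, 5.46, and 5.94 CPM in H at 5 DAP, and 7.39, 10.1, and 7.20 CPM in HL and 4.43, 2.86, and 3.21 CPM in H at 10 DAP. At 20 DAP it had 5.71, 5.14, and 3.35 CPM in HL and 24.8, 18.8, and 15.2 CPM in H. It was thus called higher in HL at both early stages (1.14 and 1.25) and lower at 20 DAP (-2.05 ± 0.26, edgeR adjusted p = 0.00141). The call at 5 DAP was lost without HL replicate 1, and that at 10 DAP under 7 of 13 alternatives. KIN-UC and this KIN-UB were the 2 members called at all 3 stages. A total of 46 members were called at some stage, 36 of them at 1 stage and 8 at 2. The share of all features called at some stage was not taken, so these pooled counts have no background.

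The KIN-14 genes of this kind peaked in HL at 10 DAP. KIN-14S Cp4.1LG00g10460 had 21.7, 19.6, and 22.7 CPM in HL and 6.99, 6.79, and 5.50 CPM in H at 10 DAP (1.75 ± 0.16, edgeR adjusted p = 0.00374), and 0.297, 0.635, and 0.460 CPM in HL and 4.08, 1.98, and 4.23 CPM in H at 20 DAP (-2.87 ± 0.47, edgeR adjusted p = 0.0035). KIN-14I Cp4.1LG02g16330 had 13.8, 20.7, and 22.2 CPM in HL and 9.34, 6.52, and 8.19 CPM in H at 10 DAP (1.25 ± 0.25, edgeR adjusted p = 0.024). KIN-14C Cp4.1LG20g03970 had 16.4, 19.6, and 20.9 CPM in HL and 7.04, 6.72, and 3.27 CPM in H at 10 DAP (1.76 ± 0.31, edgeR adjusted p = 0.0168), and 2.20, 0.288, and 0.197 CPM in HL and 8.04, 11.4, and 6.4 CPM in H at 20 DAP (-3.25 ± 0.79, edgeR adjusted p = 0.0165). In each pair of groups the libraries did not overlap. The calls at 10 DAP of KIN-14I and KIN-14C were lost under 5 and 4 of 13 alternatives, and that of KIN-14C at 20 DAP without H replicate 2.

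**Figure D5:**
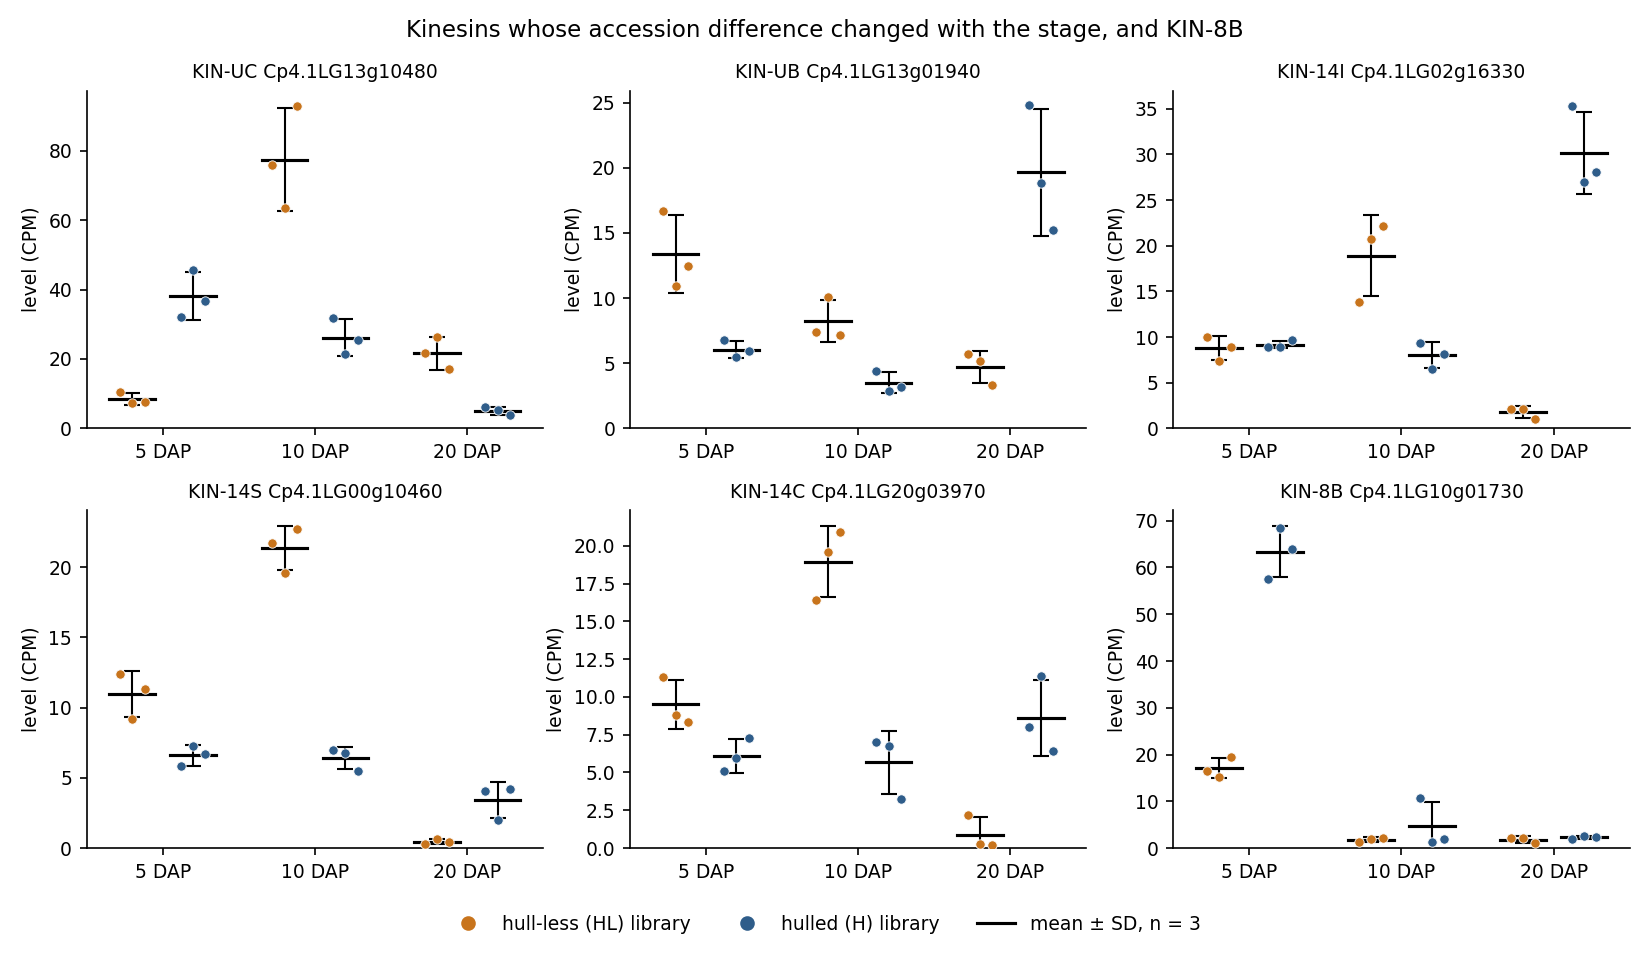
Level in CPM of 5 kinesins whose accession difference changed sign between stages, and of KIN-8B Cp4.1LG10g01730, at 5, 10, and 20 DAP. Each point is a library of HL (left) or H (right), and the bars give the mean and SD of 3 libraries; KIN-UC is lower in HL at 5 DAP and higher at 10 and 20 DAP, and KIN-UB Cp4.1LG13g01940 is higher in HL at 5 and 10 DAP and lower at 20 DAP.

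The change from 5 to 20 DAP was taken in each accession. In HL, 35 of 84 tested members were lower at 20 than at 5 DAP (background 23.1%) and 5 were higher (background 18%). In H, 23 of 84 were lower (background 20.6%) and 17 were higher (background 19.8%). The medians were -1.07 in HL and -0.17 in H. In HL the libraries of 20 DAP lay under those of 5 DAP without overlap in 56 members (37.6% of all features) and above in 8 (35.1%), and in H they did so in 35 (36.6%) and 29 (36.0%). The spindle and phragmoplast group had 9 lower and 2 higher among 23 in HL (median -1.53), and 1 lower and 8 higher among 22 in H (median 0.83). The wall-related group had 4 lower and 0 higher among 11 in HL, and 3 lower and 4 higher among 12 in H. Sums of markers of other seed tissues differed between the stages too. Embryo and storage genes summed to a mean of 1077 CPM at 20 DAP and 78.9 CPM at 5 DAP in HL, and to 5665 CPM at 20 DAP and 45.9 CPM at 5 DAP in H. Endosperm genes summed to 86.3 CPM at 20 DAP and 42.4 CPM at 5 DAP in HL, and to 232 CPM at 20 DAP and 52.5 CPM at 5 DAP in H, and only the HL endosperm sums overlapped between these stages. The part of these tissues in the change of the spindle kinesins was not tested. The 9 lower spindle calls in HL were 17 without HL replicate 1 of 20 DAP, and 4 without HL replicate 2 of 20 DAP or without any 1 library of 5 DAP.

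In HL, 18 of the 23 spindle members had their highest mean at 5 DAP and 15 had their lowest at 10 DAP, while in H 16 had their highest at 20 DAP and 20 had their lowest at 10 DAP. KIN-5B Cp4.1LG10g08920 averaged 0.630 ± 0.728 CPM at 20 DAP and 3.20 ± 0.627 CPM at 5 DAP in HL (-2.31 ± 0.86, edgeR adjusted p = 0.0484), and 9.49 ± 2.62 CPM at 20 DAP and 2.53 ± 1.10 CPM at 5 DAP in H (1.92 ± 0.35, edgeR adjusted p = 0.00189). The HL call was lost under 6 of 12 alternatives. NACK1 Cp4.1LG20g01380, a short model that overlaps Cp4.1LG20g01270 on the opposite strand, was at or under 3 counts in each H library of 20 DAP, which makes it at least 10.8-fold lower there than at 5 DAP (3 counts per library as the floor).

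The test of the difference itself, the HL effect at 20 DAP minus that at 5 DAP, called 20 of 89 members lower (background 7.85%) and 2 higher (background 6.03%). The median was -0.81 over the members and -0.02 over all 24259 features. Of the 23 spindle members, 7 were called lower and 0 higher. Of 12 wall-related members, 2 were called lower and 0 higher. Without HL replicate 1 of 20 DAP the count of 20 was 37 and the count of 7 was 16.

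Across the 18 libraries, the members whose log2 CPM most resembled FRA1 were KIN-7D Cp4.1LG04g01100 (r = 0.879), KIN-4A Cp4.1LG02g06850 (r = 0.873), KIN-8B Cp4.1LG10g01730 (r = 0.799), KIN-7D Cp4.1LG15g05640 (r = 0.786), and KIN-7E Cp4.1LG04g01150 (r = 0.728). They ranked 41, 48, 258, 310, and 633 among 16178 genes with a mean count of at least 100. The genes with the highest r to FRA1 were Cp4.1LG14g04590, a phytosulfokine precursor (r = 0.943), Cp4.1LG05g06740, which has no description (r = 0.938), Cp4.1LG02g01090, named as the microtubule-associated protein TORTIFOLIA1 (r = 0.935), Cp4.1LG03g03450 (r = 0.934), and Cp4.1LG03g01670 (r = 0.929). These correlations share stage, accession, and library, and are given as a description.

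Genes of the same name often differed. Of 30 names held by more than 1 member, KIN-12B, KIN-14C, KIN-14N, KIN-14Q, KIN-4C, and KIN-5C were called lower at 20 DAP in every member, and KIN-UB had 1 gene called lower and 1 called higher among 4. Several of those lower calls did not hold under other settings. KIN-14C Cp4.1LG09g08820 lost its call under 5 of 12, DESeq2 among them, KIN-12B Cp4.1LG03g12230 and KIN-5C Cp4.1LG03g00780 each under 4 of 12, and KIN-14N Cp4.1LG02g01280 in the joint fit of all libraries. The 5 KIN-13B genes stayed within -0.52 to -0.23, and the 5 KIN-7D genes ranged over -0.97 to 1.05. Reads shared between near-identical copies could have been divided among them in counting, so values of single copies are less certain than those of the subfamily.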

How the data were processed

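Seed coat RNA of 18 libraries was sequenced on an Illumina platform, and per the study's methods reads were quality filtered and mapped to the C. pepo genome (Cp4.1 gene models). The aligner, the counter, and the use of strand are not given in the sources used here. The authors deposited raw read counts and FPKM values per gene in 1 table, and its columns of group means, fold changes, and p-values from their own comparisons were not used. FPKM served only to compare levels between genes.

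Members were the features whose description holds "kinesin". Members and lists were chosen with earlier results of these data known. Subfamilies and role groups were set from names. Counts were tested with edgeR 4.0.16 (R 4.3.3, limma 3.58.1) by filterByExpr, TMM scaling, and the quasi-likelihood test, over all features passing the filter and with Benjamini-Hochberg adjustment. Each comparison used only its own 6 libraries, and the difference between accessions in the change from 5 to 20 DAP used all 18. A call needed an adjusted p of at most 0.05 and a log2 fold change of at least 1 in size. SE was the log2 fold change divided by the square root of the F statistic. CPM was scaled by TMM over 18 libraries, where 3 counts equal 0.138 to 0.225 CPM. Replicates were 3 biological replicates per label.

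Genes given in full were the FRA1 and Kinesin-13A orthologs, the members called higher at 20 DAP, the 10 lowest of those called lower at 20 DAP (mean count 100 or more), up to 6 called at 5 DAP and up to 6 at 10 DAP under the same count limit, up to 6 called for the accession difference in the change, and the 5 with the highest mean FPKM. An exception was KIN-14I Cp4.1LG04g08560, picked for the accession difference in the change, whose library values are not printed. Other settings tried were DESeq2 1.42.0, scaling by RLE or upper quartile, looser and stricter count filters, a joint fit of all libraries, a block for replicate number, calls by adjusted p alone, and leaving out each library. Counts of 21973 genes were simulated for HL against H at 20 DAP, with changes set only in genes with a mean count of 100 or more. There edgeR recovered 78 of 100 genes changed by 1.5 on the log2 scale and 98 of 100 changed by 3, with 9 false calls. These recoveries do not cover members with lower counts.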

Additional observations from a re-analysis of the deposited data

Results flagged for a closer look

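For 22 members the HL effect at 20 DAP differed from that at 5 DAP by the edgeR interaction test (adjusted p at most 0.05, change of at least 1 on the log2 scale). In 2 of them the effect moved upward, KIN-UC Cp4.1LG13g10480 by 4.25 and KIN-7D Cp4.1LG05g12940 by 1.38. In the other 20 it moved downward. The light chain-related KLCR3 genes Cp4.1LG14g02730 and Cp4.1LG01g01310 had -5.21 and -1.64. Among spindle and phragmoplast members, KIN-5B Cp4.1LG10g08920 had -4.22, KIN-14C Cp4.1LG20g03970 -3.88, KIN-12B Cp4.1LG08g05580 -3.11, KIN-5C Cp4.1LG08g10080 -2.50, KIN-14N Cp4.1LG06g09120 -2.01, KIN-10A Cp4.1LG12g01290 -1.93, and NACK2 Cp4.1LG01g17070 -1.20. Among wall-related members, KIN-4C Cp4.1LG02g05370 had -2.53 and KIN-13B Cp4.1LG12g08230 -2.14. The KIN-14 genes with a calponin homology domain were the KIN-14I genes Cp4.1LG04g08560 (-4.11) and Cp4.1LG02g16330 (-4.03) and KIN-14L Cp4.1LG07g06490 (-2.97). Of these, Cp4.1LG04g08560 averaged only 0.112 FPKM, and its counts were too few for the test between accessions at 20 DAP alone. The rest were KIN-7N Cp4.1LG07g04750 (-3.89), KIN-14S Cp4.1LG00g10460 (-3.60), KIN-14Q Cp4.1LG14g03260 (-3.28), KIN-UB Cp4.1LG13g01940 (-3.19), KIN-10C Cp4.1LG13g02620 (-2.98), and KIN-7O Cp4.1LG03g08770 (-1.10). KIN-7O overlaps another feature on the opposite strand over 800 bp. Leaving out libraries or changing other settings ended the calls of KIN-5C Cp4.1LG08g10080 under 13 of 24 alternatives, KIN-7D Cp4.1LG05g12940 under 11 of 25, KIN-14I Cp4.1LG04g08560 under 10 of 24, and NACK2 Cp4.1LG01g17070 under 9 of 25. Alternatives were not run gene by gene for KIN-4C Cp4.1LG02g05370, KIN-13B Cp4.1LG12g08230, KIN-14L, KIN-14Q, KIN-10C, and KIN-7O, and the other 12 calls were lost under none of those run.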

How the results depend on the processing

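With single libraries left out, 5 to 6 members were called lower and 1 to 4 higher in HL at 5 DAP (7 and 3 with all libraries), 1 to 4 lower and 2 to 7 higher at 10 DAP (3 and 6), and 21 to 44 lower and 2 to 4 higher at 20 DAP (35 and 4). Spindle members called lower at 20 DAP were 5 to 17 (15), and over time 4 to 17 in HL (9) and 1 to 2 in H (1). For the difference between accessions in the change from 5 to 20 DAP, 14 to 37 were lower and 1 to 3 higher (20 and 2), and 5 to 16 spindle members were lower (7). With at least 10 counts in every library, 1 was called higher at 5 DAP, 17 lower and 1 higher at 20 DAP (6 lower among spindle members), 3 higher in HL over time, and 8 lower for the difference (3 among spindle members); fewer genes were tested there. The spindle counts in HL became 5 lower and 1 higher. In a fit of all 18 libraries, 4 were lower at 5 DAP, 13 lower and 9 higher at 10 DAP, and 5 spindle members higher in H over time (8 before). DESeq2 called 10 lower at 10 DAP and 11 spindle members lower for the difference, and a fit of the 12 libraries of 5 and 20 DAP called 10. A filter of at least 1 count left 6 spindle members lower in HL over time. RLE scaling, upper-quartile scaling, DESeq2, the 1-count filter, and the joint fit each called 2 spindle members lower in H over time. Without the fold limit, 19 were lower and 9 higher at 5 DAP, 7 higher at 20 DAP, 31 higher in H over time (3 lower among spindle members), and 5 higher for the difference. Upper-quartile scaling, which moved the median of all features to -0.12 at 10 DAP, -0.16 in HL over time, and -0.10 for the difference, called 2 higher at 20 DAP and 1 higher for the difference. The cause of these moves was not tested.

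Deviations of same-numbered libraries correlated at r of -0.292 to 0.341. Replicate 1 correlated best with its own number in the 3 comparisons of HL with H (0.341, 0.168, and 0.197), as did replicate 3 at 20 DAP (0.207), but in no comparison did all 3 numbers, so the numbers were not taken to pair samples. With the replicate block, 1 was called higher at 5 DAP, 1 lower and 2 higher at 10 DAP, 38 lower and 4 higher at 20 DAP, 1 higher for the difference, and 6 spindle members lower in HL over time.

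Of 108 single-gene results, 72 kept their direction and their side of the threshold under all alternatives run, 35 lost a call under at least 1, and 1 changed sign. The last was KIN-13A Cp4.1LG17g00590 in HL at 20 against 5 DAP, at 0.03 and not called, which became -0.11 with upper-quartile scaling and -0.064 with at least 10 counts in every library, and which ranged from -0.036 to 0.062 with single libraries left out. Members near 3 counts per library are limited by depth.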
